A study of Mus musculus with 6 samples.

Results

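The genes described here carry the symbols of the DDX and DHX families, most of which are RNA helicases. They are the 49 genes, of 10128 in the authors' deposited table, whose symbol starts with Ddx or Dhx followed by a digit, with Ddx3x and Ddx3y left out. Of these, 34 carry the prefix Ddx and 15 the prefix Dhx. The symbols also take in Ddx11, a DNA helicase, and Ddx26b, a relative of an Integrator subunit gene, and both are counted among the members. RNA was sequenced from mouse embryonic stem (ES) cells of 2 genotypes, Tex19.1+/- with 1 intact copy of the gene and Tex19.1-/- with none, in 3 libraries each. Both genotypes descend from the E14Tg2a line, have a 129/Ola background and grew on gelatin in medium with serum and leukaemia inhibitory factor. The controls are thus heterozygous, and no wild-type cells were used here. Tex19.1 is expressed in germ cells, placenta and pluripotent cells, and its protein binds the ubiquitin ligase UBR2. The labels do not say whether the libraries of a genotype came from separate clones or cultures, so the p-values measure the spread between these libraries, which may be technical.

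DDX and DHX proteins use ATP to unwind RNA or to strip proteins from it, and are named after the amino acid letters of a conserved motif, DEAD or DEAH. DEAD-box proteins mostly open short duplexes locally, whereas DEAH-box proteins move along RNA and are often switched on by cofactors with a G-patch domain. Family members serve nearly every step in the life of an RNA: ribosome assembly in the nucleolus, splicing, export, translation, decay and the detection of viral RNA. ES cells divide rapidly and make many ribosomes, and a few family members, such as the Vasa gene Ddx4, are known chiefly from germ cells.

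The authors' deposited table gives for each gene 1 log2 fold change, 1 mean in CPM (reads counted for the gene, scaled to the library's total), a p-value and an adjusted p, and no value per library, so neither depth nor the spread among libraries can be shown. A positive value is taken to mean a higher level without Tex19.1, since Tex19.1 itself stands lowest of all genes at -6.92 in the authors' deposited table, or 0.828% of the level in heterozygous cells. Of the 12 listed markers of pluripotent cells all 12 were measured, with means from 163 to 1566 CPM; 4 rose and 5 fell in the authors' deposited table, between -0.25 and 0.36. Of 14 endoderm markers 11 were measured and all 11 fell; the median of their log2 values was -2.08 in the authors' deposited table. Sox17, Foxa2 and Amn of that list were not analysed here. Of 12 markers of fibroblasts and feeder cells 3 were measured: Fbn1 fell at -0.76, Vim fell at -0.33 and Fn1 rose at 0.23 in the authors' deposited table; the collagen markers Col1a1, Col1a2 and Col3a1 were not analysed here. The endoderm list thus moved with genotype as a whole, and the part of these markers in the helicase values was not tested. In bulk RNA, fewer cells of a type and less RNA per cell cannot be told apart.

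The promoters of 5 members are shown because these genes mark both ends of the family's range: Dhx40, Ddx58 and Ddx42 had the largest rises, and the germ cell helicase genes Ddx43 and Ddx4 both fell. Each line runs 5′ to 3′ on the strand of the gene and ends before the outermost start annotated by RefSeq or GENCODE. Sequences are from RefSeq on GRCm38.p6, and the capitals mark CG dinucleotides, the sites of DNA methylation in mammals.
Dhx40: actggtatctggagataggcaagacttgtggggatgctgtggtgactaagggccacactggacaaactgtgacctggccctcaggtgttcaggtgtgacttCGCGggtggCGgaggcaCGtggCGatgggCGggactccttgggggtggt
Ddx58: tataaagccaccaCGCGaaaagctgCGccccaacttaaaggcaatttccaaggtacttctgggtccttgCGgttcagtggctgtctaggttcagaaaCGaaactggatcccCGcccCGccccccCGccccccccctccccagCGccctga
Ddx42: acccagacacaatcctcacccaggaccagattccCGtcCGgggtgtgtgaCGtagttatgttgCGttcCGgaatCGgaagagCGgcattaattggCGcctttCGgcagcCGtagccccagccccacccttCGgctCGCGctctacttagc
Ddx43: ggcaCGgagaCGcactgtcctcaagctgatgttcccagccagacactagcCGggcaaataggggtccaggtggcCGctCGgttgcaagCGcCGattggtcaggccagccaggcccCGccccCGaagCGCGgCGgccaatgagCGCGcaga
Ddx4: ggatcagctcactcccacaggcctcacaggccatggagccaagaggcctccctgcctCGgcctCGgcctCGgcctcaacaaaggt
The Dhx40 stretch lies at chr11:86807747-86807896 on the minus strand and holds 6 CG. The Ddx58 stretch, chr4:40239829-40239978 on the minus strand, holds 9, and the Ddx42 stretch, chr11:106216776-106216925 on the plus strand, holds 13. The Ddx43 stretch, chr9:78395627-78395776 on the plus strand, holds 14 CG, and all of it is also exon of 4930542C12Rik, a non-coding gene on the opposite strand. The Ddx4 stretch, chr13:112652476-112652560 on the minus strand, is 85 bases long and holds 3 CG; the other stretches are 150 bases long.

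A promoter window from 250 bases before to 50 after the RefSeq start was found for 44 of the 49 members. Over the 250 bases before the start, the members held a median of 18.5 CG, from 4 in Ddx26b and Dhx57 to 32 in Ddx51, beside a median of 17 for 7640 genes of the table. Ddx43 had 20 and Ddx4 had 31, so neither of these windows was poor in CG. Only 3 of the 31 CG of Ddx4 lie in the stretch printed above, since GENCODE starts that gene further upstream than RefSeq. Of short motifs searched on both strands, the ETS-like CCGGAAGT was in 22.7% of the members' windows, 9.69% of the windows of the table's genes and 4.0% of all 27025 windows. The E-box CACGTG was in 9.09% of the members' windows, 11.2% of those of the table's genes and 7.24% of all windows. CCAAT stood in 22 of the 44 members' windows, 39.7% of those of the table's genes and 37.9% of all, and TATAAA in 1 member's window, 6.03% and 14.2%. These letter matches are a description of the windows and not binding sites, and they can overlap one another.

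More helicase genes were higher than lower in cells without Tex19.1. Of the 49 members 25 rose, 5 fell and 19 did not pass the threshold, an adjusted p under 0.05 by the test of the authors' deposited table, which 51.7% of all genes passed in either direction. That is 51.0% of members higher, where the share of all genes called higher was 25.2%, and 10.2% lower, where the share of all genes called lower was 26.5%. The median log2 fold change was 0.10 for the members and 0.00 for all genes. After the median of the genes nearest in expression was taken from each value, the members' median was 0.06. With calls made anew from these centred values and the implied errors described below, 20 members were higher and 7 lower, beside 23.4% and 26.6% of all genes. Ddx5, Ddx21, Ddx39b, Ddx52 and Dhx15 no longer passed, and Ddx17 and Ddx47 passed as lower. In the uncentred values the middle 50% of members lay between 0.01 and 0.15 beside -0.12 and 0.11 for all genes. No member changed 2-fold: the values ran from -0.33 in Ddx43 to 0.34 in Dhx40 in the authors' deposited table.

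The changes were small. Of the 30 members that passed, 22 had an absolute log2 fold change under 0.2. Only 26.7% of the called members reached 0.2, beside 56.5% of all called genes. With that size required as well, 7 members were higher and 1 was lower, which is 14.3% of members beside 12.0% of all genes, and 2.04% beside 17.2%. The larger share of members on the higher side was therefore made up mostly of changes below that size, whereas few members stood on the lower side under either rule. Among genes between the members' quartiles of expression, 48.5 to 155 CPM, 13 of 25 members rose and 1 fell, beside 29.2% and 24.2% of 2760 genes.

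**Figure D1:**
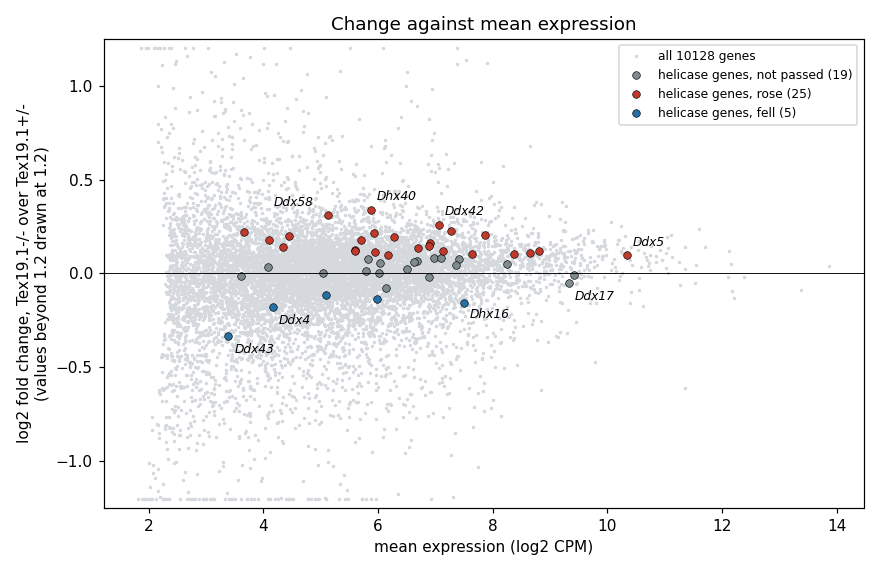
Log2 fold change (vertical axis, Tex19.1-/- over Tex19.1+/-, values beyond 1.2 drawn at 1.2) against mean expression in log2 CPM (horizontal axis) for all 10128 genes in grey and the 49 helicase genes as large points, coloured by whether they rose (25), fell (5) or did not pass (19). The helicase genes lie in a narrow band between -0.33 and 0.34, most of them just above 0.

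Members of low CPM had the least precise values. An approximate standard error was taken from each deposited p-value as if the test statistic were normal. It ran from 0.04 for Ddx24, at 120 CPM, to 0.07 for Ddx59, at 12.2 CPM. The smallest change that passed was 0.10, in Ddx5 and Ddx52. The lowest mean of any member was 10.5 CPM, in Ddx43, and the highest 1294 CPM, in Ddx5, in the authors' deposited table, where the lowest mean of any gene was 3.52 CPM. These CPM values are not scaled for transcript length and do not rank the helicases by abundance. GENCODE lists 3 further protein-coding genes under the same symbols, Ddx25, Ddx60 and Dhx58, which were not analysed here.

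**Figure D2:**
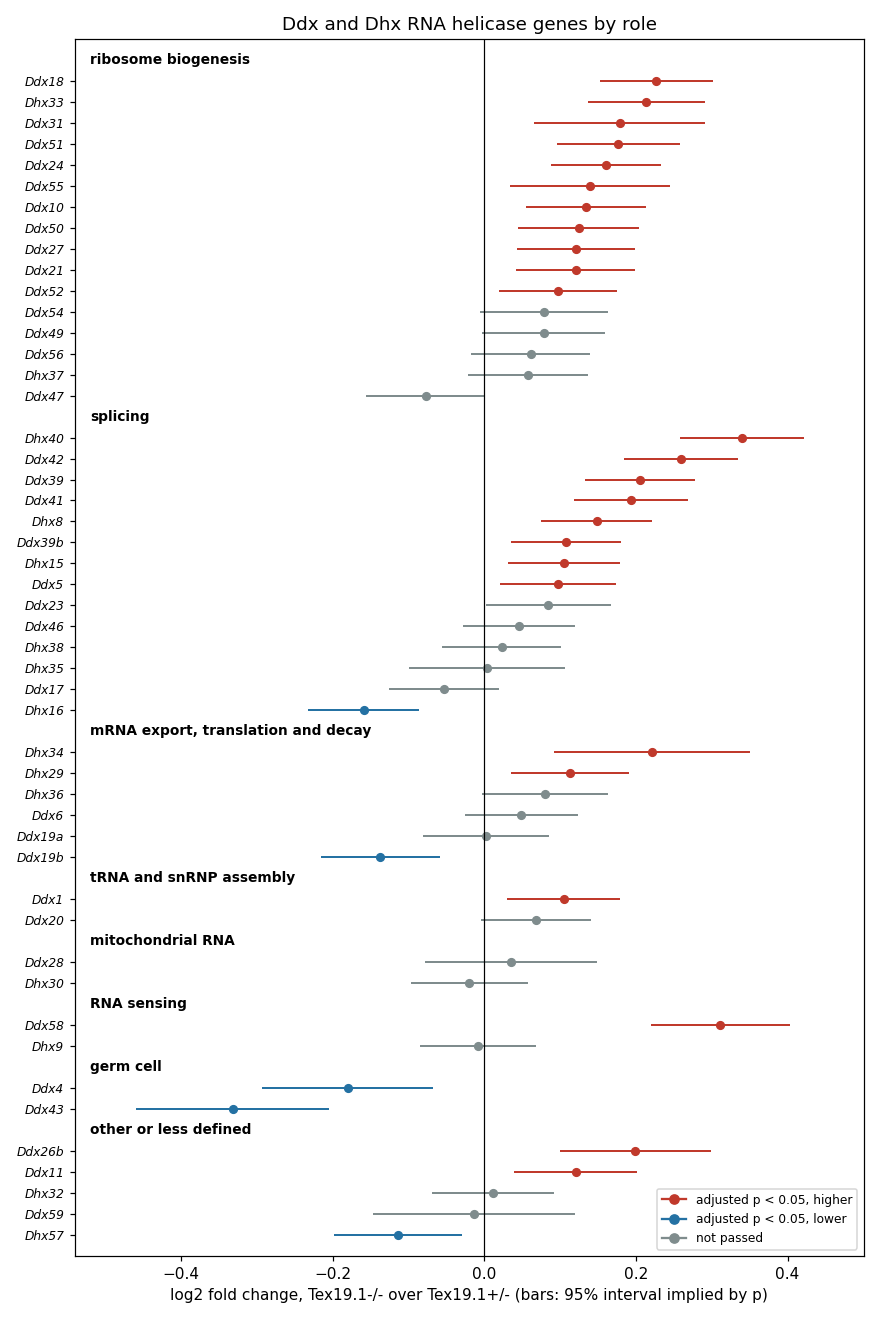
Log2 fold change (points, horizontal axis, Tex19.1-/- over Tex19.1+/-) of each of the 49 helicase genes, ordered within role groups, with bars for the approximate 95% interval implied by the deposited p-value. In the ribosome biogenesis group 15 of 16 points lie above 0, and both germ cell genes lie below it.

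Most helicases of ribosome biogenesis rose, the majority of them by under 0.2. These proteins remodel the precursor of ribosomal RNA and release small nucleolar RNAs during assembly of the ribosomal subunits. Of 16 members 11 rose and 0 fell, 68.8% and 0.0% beside 25.2% and 26.5% of all genes. Their median was 0.12, and only Ddx47 had a negative value. An absolute log2 fold change of 0.2 was reached by 2 of the 16, Ddx18 and Dhx33, both higher. That share is near the 12.0% of all genes called higher at that size. After centring on genes of like expression the median was 0.11. With calls made anew from centred values, Ddx21 and Ddx52 no longer passed and Ddx47 passed as lower. Away from chromosome 11, described below, 9 of 13 rose, 69.2% beside 23.7% of genes there. Ddx47, counterpart of yeast Rrp3, stood at -0.08 (adjusted p = 0.0848); at an unadjusted p under 0.05 by the authors' deposited test it would be the 1 member counted as lower. Ddx18, which acts in large-subunit assembly, rose by 0.23 in the authors' deposited table, 17.0% above the heterozygous level, at a mean of 155 CPM (adjusted p = 1.01e-08). It lies on chromosome 1 from 121553835 to 121567989 (GRCm38, minus strand). Of the 50-base windows of its longest transcript, 62.7% also occur in other genes, chiefly the processed pseudogene Gm16433, so its count is uncertain. Dhx33, a DEAH-box gene needed for ribosomal RNA synthesis, rose by 0.21 in the authors' deposited table (60.9 CPM, adjusted p = 1.92e-07).

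Smaller rises in the authors' deposited table were found for Ddx31 at 0.18, Ddx51 at 0.18, Ddx24 at 0.16 and Ddx55 at 0.14, and for the small-subunit factor Ddx10 at 0.13. Ddx27 and Ddx21 both stood at 0.12 in the authors' deposited table, and Ddx52, the counterpart of yeast Rok1, at 0.10. Ddx21, a nucleolar helicase that also binds ribosomal genes, and its close relative Ddx50 are neighbours on chromosome 10, from 62580251 to 62602281 and from 62615895 to 62651218. They stood at 0.12 (446 CPM) and 0.12 (48.2 CPM) in the authors' deposited table, each with an implied standard error of 0.04. For Ddx50, 17.3% of its windows are shared with other genes, chiefly the pseudogene Gm8228. Those that did not pass were Ddx54 at 0.08, Ddx49 at 0.08, Ddx56 at 0.06 and Dhx37, which releases the U3 small nucleolar RNA, at 0.06 in the authors' deposited table. Reads on Ddx49 are also uncertain, since 29.8% of its exonic bases lie opposite exons of Homer3 and the strand setting of the counting is not given in the sources used here. For Ddx54, 14.2% of the exonic bases lie opposite exons of Gm43579.

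These helicases work within larger assemblies. Of 25 listed components of the small-subunit processome 13 rose and 0 fell, with a median of 0.10. Utp14a at 0.27, Imp3 at 0.25, Wdr3 at 0.23 and Utp18 at 0.22 led that list by p-value in the authors' deposited table. Utp14a is the cofactor of Dhx37. Of 24 large-subunit assembly factors 9 rose and 0 fell, with a median of 0.07, led in the authors' deposited table by Ftsj3 at 0.35, Bop1 at 0.22, Pes1 at 0.17 and Noc2l at 0.13. Ftsj3, which adjoins Ddx42, and Pes1 lie on chromosome 11, whose genes are described below, and away from it 7 of 22 large-subunit factors rose, 31.8%. Bop1 and Pes1 encode subunits of the PeBoW complex.

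Among the splicing helicases 8 of 14 rose and 1 fell, with a median of 0.10, beside 25.2% and 26.5% of all genes. After centring on genes of like expression the median was 0.05. With calls made anew from centred values, 5 splicing helicases were higher and 2 lower, beside 23.4% and 26.6% of all genes. Dhx40, a DEAH-box gene related to the spliceosomal helicases but of less settled function, had the largest rise of the family. It rose by 0.34 in the authors' deposited table, 26.5% above the heterozygous level, at 58.5 CPM (adjusted p = 2.16e-15). The gene lies on chromosome 11 from 86768846 to 86807746 (minus strand), next to the promoter printed above. Ddx42, which associates with the SF3b complex of the U2 particle, rose by 0.26 in the authors' deposited table, or 19.7%, at 133 CPM (adjusted p = 3.74e-11), and lies on chromosome 11 from 106216926 to 106249139 (plus strand).

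Ddx39, also called Ddx39a, and Ddx39b are paralogs that couple splicing to export; the authors' deposited table has them at 0.21 (adjusted p = 1.1e-07) and 0.11 (adjusted p = 0.00802). Their implied 95% intervals, 0.13 to 0.28 and 0.04 to 0.18, overlap, and the difference between the 2 was not tested. For Ddx39, 17.4% of the exonic bases lie opposite exons of Adgre5. Ddx41, which binds the catalytic spliceosome, was at 0.19 in the authors' deposited table, and 17.4% of its exonic bases lie opposite exons of Gm46416. Dhx8, which releases the finished mRNA, was at 0.15, and Dhx15, which takes apart spent spliceosomes, at 0.11 in the authors' deposited table. Ddx5 passed at 0.10 and its paralog Ddx17 did not, at -0.05 in the authors' deposited table (adjusted p = 0.216). The implied intervals were 0.02 to 0.17 and -0.12 to 0.02, and the difference was not tested. Ddx5 shares 22.7% of its windows with other genes, chiefly the pseudogene Gm12183.

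Dhx16, the mammalian counterpart of yeast Prp2 that readies the spliceosome for the first step of splicing, was the only splicing helicase to fall. At -0.16 in the authors' deposited table it fell by 10.5%, at 181 CPM (adjusted p = 5.49e-05). It lies on chromosome 17 from 35879819 to 35892670 (plus strand). Helicases of neighbouring steps did not pass: Ddx23, which displaces the U1 particle, was at 0.08 (adjusted p = 0.0757), Ddx46, which acts at the branch site, at 0.05 and Dhx38, which drives the second step, at 0.02 in the authors' deposited table. Dhx35, found in the catalytic spliceosome, was at 0.00 in the authors' deposited table (implied interval -0.10 to 0.11).

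Partners of the splicing and export helicases were measured from lists. Of 22 G-patch proteins, the class that activates DEAH-box helicases such as Dhx15, 5 rose and 0 fell, with a median of 0.03. By p-value they were led by Pinx1 at 0.27, Rbm5 at 0.14, Nkrf at 0.16 and Gpatch8 at 0.11 in the authors' deposited table. Of 13 genes of the TREX complex and the export machinery, in which Ddx39b and Ddx19a act, 7 rose and 0 fell, with a median of 0.11. Nxt1 was at 0.26, Nxf1 at 0.15, Thoc1 at 0.16 and Sarnp at 0.15 in the authors' deposited table; Nxf1 and Nxt1 together encode the main mRNA export receptor. As shares, 52.0% of the processome list, 37.5% of the large-subunit list, 53.8% of the export list and 22.7% of the G-patch list rose, beside the 25.2% of all genes. In these 4 lists no gene fell by the authors' deposited test, and at an unadjusted p under 0.05 the count of lower genes was also 0.

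Of the 6 helicases of export, translation and decay 2 rose and 1 fell, 33.3% and 16.7% beside 25.2% and 26.5% of all genes. With 6 genes these shares are a description only. The median was 0.06, or 0.03 after centring. Dhx34, which takes part in nonsense-mediated decay, rose by 0.22 in the authors' deposited table, 16.5% above the heterozygous level, at a mean of only 12.6 CPM (adjusted p = 0.00205). Dhx29, which helps the small ribosomal subunit scan structured leaders, was at 0.11 in the authors' deposited table (adjusted p = 0.00955). Ddx6, the decapping and P-body helicase, did not pass at 0.05 (implied interval -0.02 to 0.12), nor did Dhx36, which unwinds G-quadruplexes, at 0.08 in the authors' deposited table. Of 11 P-body partners of Ddx6 1 rose, Lsm14b at 0.30 in the authors' deposited table, and 0 fell. These are 9.09% and 0.0% beside 25.2% and 26.5% of all genes. At an unadjusted p under 0.05 by the deposited test the count of lower partners was also 0. Next by p-value were Dcp1a at -0.07, Edc4 at 0.04 and Lsm14a at 0.03.

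Ddx19a and Ddx19b are adjacent paralogs that release mRNA at the nuclear pore. Ddx19b, on chromosome 8 from 111003188 to 111031751 (minus strand), was at -0.14 in the authors' deposited table and fell by 9.08%, at 62.9 CPM (adjusted p = 0.00139). Ddx19a, from 110974996 to 110997800 on the same strand, was at 0.00, at 64.4 CPM (adjusted p = 0.969), in the authors' deposited table. The implied intervals, -0.21 to -0.06 and -0.08 to 0.08, overlap slightly, and the difference was not tested. Of the Ddx19a windows 33.3% also occur in Ddx19b, and 12.7% of the Ddx19b windows in Ddx19a, so both values are uncertain.

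The RNA sensor RIG-I is encoded by Ddx58, which had the next largest rise after Dhx40. It rose by 0.31 in the authors' deposited table, 24.1% above the heterozygous level, at 34.9 CPM (adjusted p = 1.14e-10), and lies on chromosome 4 from 40203773 to 40239828 (minus strand). Mavs, the mitochondrial adaptor through which RIG-I signals, was at 0.50 in the authors' deposited table (adjusted p = 5.55e-27). Mavs lies on chromosome 2 from 131234063 to 131248025 (plus strand). Of 6 measured genes of RIG-I-like receptor signalling 1 rose and 2 fell, 16.7% and 33.3% beside 25.2% and 26.5% of all genes. Tank was at -0.19, Traf3 at -0.18 and Tbk1, which did not pass, at -0.08 in the authors' deposited table. Ifih1, Ikbke, Irf7 and Rnf135 of the same list were not analysed here. Dhx9, a DEAH-type helicase that acts in transcription and also binds foreign nucleic acid, was at -0.01 in the authors' deposited table (684 CPM, adjusted p = 0.871).

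Both measured members of the germ cell group fell. Ddx43, also known as HAGE and expressed mainly in testis, had the lowest value of the family, -0.33 in the authors' deposited table, so it fell by 20.6%, at 10.5 CPM (adjusted p = 1.16e-06). It lies on chromosome 9 from 78395777 to 78423587 (plus strand), and 15.9% of its exonic bases lie opposite exons of 4930542C12Rik. Ddx4, the Vasa gene of the germline and a partner of the piRNA pathway, was at -0.18 in the authors' deposited table and fell by 11.8%, at 18.0 CPM (adjusted p = 0.00394); it spans 112598333 to 112652475 on chromosome 13 (minus strand). Their implied intervals, -0.46 to -0.21 for Ddx43 and -0.29 to -0.07 for Ddx4, lie below 0. With 2 genes the group is described by its values alone. Helicases under other symbols are not part of it. Among those, Tdrd12 rose by 0.75 and Ythdc2 fell, at -0.49 in the authors' deposited table.

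Of the remaining members, Ddx1, a subunit of the tRNA ligase complex, was at 0.10 in the authors' deposited table (adjusted p = 0.0116), and its partners Rtcb, the ligase itself, at 0.11 and Fam98b at 0.12 also passed, whereas Zbtb8os did not at 0.11. Of 3 measured partners 2 rose, 66.7% beside 25.2% of all genes. Ddx20, or Gemin3, of the SMN complex that assembles spliceosomal particles did not pass at 0.07 in the authors' deposited table (adjusted p = 0.103). In that complex 2 of 7 partners rose and 0 fell (0 also at an unadjusted p under 0.05 by the deposited test). These are 28.6% and 0.0% beside 25.2% and 26.5% of all genes. Gemin5 was at 0.22 and Smn1 at 0.19 in the authors' deposited table. Gemin6 at 0.10 and Gemin8 at 0.07 did not pass. The mitochondrial helicases Ddx28 at 0.03 and Dhx30 at -0.02 did not pass in the authors' deposited table.

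Ddx11, a DNA helicase of sister chromatid cohesion, was at 0.12 in the authors' deposited table (adjusted p = 0.00738). Ddx26b, which GENCODE names Ints6l, a relative of the Integrator subunit gene Ints6, was at 0.20 in the authors' deposited table (adjusted p = 0.00025). Dhx57, of less known function, was at -0.11 in the authors' deposited table and fell by 7.58%, at 34.1 CPM (adjusted p = 0.017). Dhx32 at 0.01 and Ddx59, linked to ciliary signalling, at -0.01 did not pass in the authors' deposited table.

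By symbol, 19 of 34 Ddx genes rose and 3 fell, and 6 of 15 Dhx genes rose and 2 fell. These are 55.9% and 8.82% of Ddx genes and 40.0% and 13.3% of Dhx genes, beside 25.2% and 26.5% of all genes. Away from chromosome 11, described below, 3 of 12 Dhx genes rose, a share near the 23.7% of all genes there. Their medians were 0.10 and 0.06, and the difference between the families was not tested. Of 19 measured RNA helicases that carry other symbols 6 rose and 3 fell, with a median of 0.03. The share higher, 31.6%, was near the 25.2% of all genes, and the share lower, 15.8%, was below the 26.5% of all genes. By p-value the authors' deposited table puts first Dicer1 at 0.59, Tdrd12 at 0.75 and Ythdc2 at -0.49. These 3 changes were larger in size than that of any of the 49 members.

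**Figure D3:**
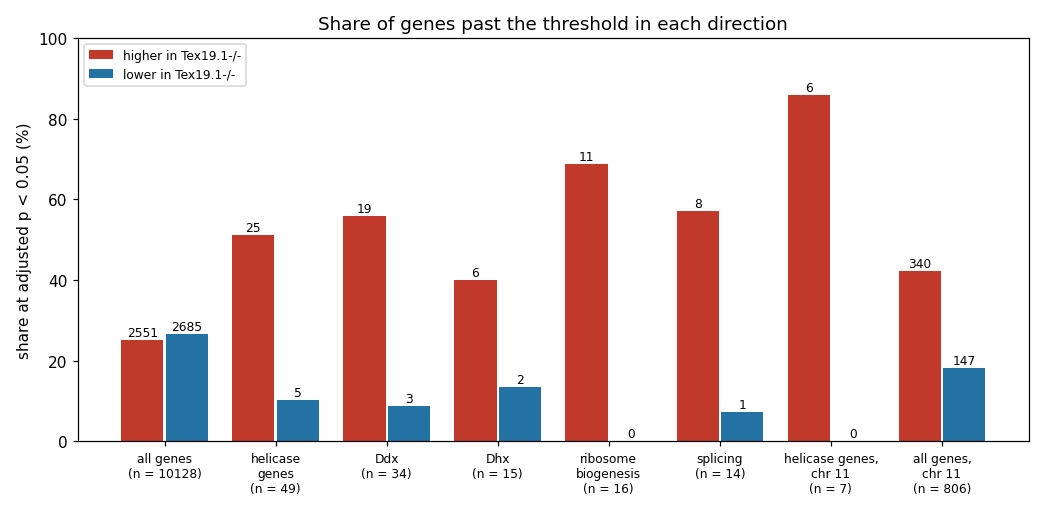
Percentage of genes at an adjusted p under 0.05 (vertical axis) that were higher (red) or lower (blue) in Tex19.1-/- cells, for all genes, the helicase genes and subsets of them, with the number of genes above each bar. The helicase genes have 25 higher and 5 lower, whereas all genes split nearly evenly at 2551 and 2685.

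Chromosome 11, which carries Tex19.1, held 7 members, of which 6 rose and 0 fell. Genes of that chromosome were themselves more often higher: 42.2% of 806 rose and 18.2% fell, with a median of 0.07. At an unadjusted p under 0.05, by the same deposited test, the count of falling members there was also 0. The 6 were Dhx40, Ddx42, Dhx33, Dhx8, Ddx52 and Ddx5; Ddx56 did not pass. Away from chromosome 11, 19 of 42 members rose, 45.2% beside 23.7% of genes, and 5 fell, 11.9% beside 27.4%. Of the 8 splicing helicases that rose, 4 lie on this chromosome, and away from it 4 of 10 rose. Of the Dhx genes that rose, 3 of 6 lie there. Among the partner genes named above, Ftsj3, Pes1, Utp18, Gemin5 and Gpatch8 lie there too, and Utp14a and Nkrf lie on the X chromosome. Genes of the X chromosome were also more often higher: 38.4% of 315 rose and 15.2% fell, with a median of 0.07. Mavs, Tank, Nxt1, Lsm14b and Fam98b lie on chromosome 2, Nxt1 from 148672601 to 148676027, and Pinx1 lies on chromosome 14. On chromosome 2 as a whole 24.8% of 787 genes rose and 28.0% fell. The genes next to these partners were not described here, and whether position bears on their values was not tested. Away from chromosome 11, 12 of 23 processome genes rose, 5 of 11 export genes, 4 of 21 G-patch genes and 1 of 6 SMN partners.

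Each member was also set beside the median of the 10 nearest measured genes on either side. Of the 49 members 39 stood above that median, 79.6%, beside 49.9% of 9289 genes with 20 such neighbours. On chromosome 11 the neighbours of Dhx40 had a median of 0.09, those of Ddx42 and Dhx33 0.13 each, and those of Dhx8 0.11, all below the gene itself. The neighbours of Ddx5 had a median of 0.18, above the 0.10 of Ddx5. Ddx26b on the X chromosome was below its neighbours as well, at 0.20 beside 0.24. Ddx58 and Ddx18 rose among neighbours with medians of 0.02 and -0.02. How far the chromosomal position bears on the members' values was not tested.

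**Figure D4:**
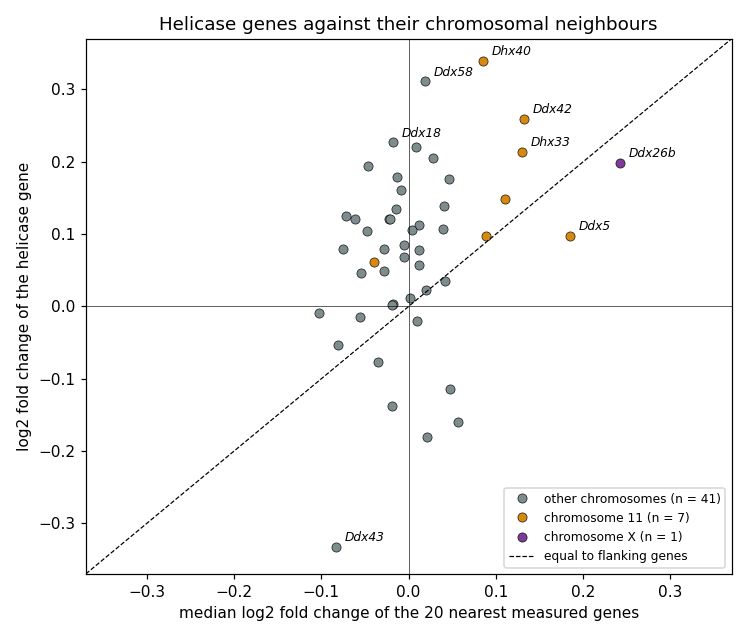
Log2 fold change of each helicase gene (vertical axis) against the median log2 fold change of its 20 nearest measured genes (horizontal axis), with chromosome 11 in orange and X in purple; the dashed line marks equality. Most points, 39 of 49, lie above the line, and the chromosome 11 genes lie to the right with 1 exception.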

How the data were processed

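RNA was extracted with TRIzol and made into TruSeq Stranded mRNA libraries sequenced in pairs on a HiSeq instrument, per the labels' protocols. Per the submitters' processing notes, the authors used HTSeq 0.11.2, TopHat2 2.1.0, Trim Galore 0.4.1 and edgeR on mm10. Which annotation, strand setting, low-count filter, edgeR version and form of test they used was not given in the sources used here. As 1 table, the authors deposited for 10128 genes a mean as log2 CPM, a log2 fold change, a p-value and an adjusted p-value (FDR), per the file headers. Recomputed Benjamini-Hochberg values differ from the deposited adjusted p-values by at most 6.7e-05.

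With no values per library used here, no count model was fitted and depth is unknown; the authors' comparison of 3 against 3 libraries is used, with a threshold of 0.05. The members, role groups and partner lists were chosen with earlier results of these data known, and no set test was run. Every member is named; fuller statistics go to the 6 largest rises and all 5 falls, and up to 4 genes with the smallest p-value are named per partner list. Approximate errors equal the log2 fold change divided by the normal quantile of the p-value. Positions come from GENCODE M21 on GRCm38, the assembly of mm10, with 9694 genes placed; 50-base windows of each member's longest coding transcript were searched in all GENCODE transcripts. Work was done in Python 3.11.15 with scipy 1.17.1, and the centring step was tested on simulated data.

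As alternatives, Bonferroni adjustment, an adjusted p under 0.01, a least absolute log2 fold change of 0.2, genes of at least 16 CPM, centring on the 301 genes nearest in expression, leaving out chromosomes 2 and 14 and, added after the data were seen, leaving out chromosome 11 and making calls anew from centred values with the approximate errors were tried.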

Additional observations from a re-analysis of the deposited data

How the results depend on the processing

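At an adjusted p under 0.01, 20 members were higher and 4 lower, 40.8% and 8.16% beside 19.5% and 21.8% of all genes. Under that threshold 1 Dhx gene was lower, and the tRNA and snRNP group had 0 higher and the less defined group 0 lower. Bonferroni adjustment left 7 members higher and 1 lower, 14.3% and 2.04% beside 9.58% and 14.2% of all genes. By symbol this was 5 higher and 1 lower for Ddx and 2 and 0 for Dhx. By role it left 2 ribosome biogenesis and 4 splicing genes higher with 0 splicing genes lower, 0 higher and 0 lower among export, translation and decay genes and among the less defined, 0 higher in the tRNA and snRNP group, and 1 germ cell gene lower. Requiring an absolute log2 fold change of 0.2 gave 7 higher and 1 lower: 4 and 1 for Ddx, 3 and 0 for Dhx, 2 ribosome biogenesis genes higher, 3 splicing genes higher and 0 lower, 1 export, translation and decay gene higher and 0 lower, 0 and 0 of the less defined, 0 higher in the tRNA and snRNP group and 1 germ cell gene lower. These stricter rules call fewer genes throughout by construction. Across all genes Bonferroni adjustment left 970 higher and 1443 lower, 9.58% and 14.2%, and the size rule 1215 and 1742, 12.0% and 17.2%. The counts by symbol and role are to be read beside these shares. Among genes of at least 16 CPM, 24 members were higher and 4 lower, 52.2% and 8.70% beside 26.9% and 24.8% of such genes. The export, translation and decay group then had 1 higher and the germ cell group 1 lower, since Dhx34 and Ddx43 fall below that mean. Without chromosomes 2 and 14 the counts were 23 and 5. Without chromosome 11, chosen after seeing the data, they were 19 and 5, 45.2% and 11.9% beside 23.7% and 27.4% of the genes kept. There 3 Dhx genes and 4 splicing genes were higher. Centring on genes of like expression, with the deposited calls kept, left the sign of every called member; of members that had not passed, Ddx19a moved to -0.018, Ddx59 to 0.010 and Dhx32 to -0.0038. With calls made anew from the centred values, chosen after seeing the data, 5 members that rose no longer passed. The 4 called values of Ddx5, Ddx21, Ddx39b and Dhx15 shrank by over 1.5 times, to between 0.03 and 0.06. By these calls 5 Ddx genes and 1 ribosome biogenesis gene were lower, and 5 splicing genes were higher and 2 lower. Of all genes 23.4% were higher and 26.6% lower by the same calls. No paired analysis was possible because the deposited table gives no values per library, and leaving out each replicate was not run for the same reason. Depth is unknown; the implied error was largest, 0.07, for Ddx59 at 12.2 CPM.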
